A study of Mus musculus with 8 samples.

Results

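The 10 genes described here encode transcription regulators of pachytene spermatocytes and of the spermatid stages that follow: Mybl1, Tcfl5, Rfx2, Rfx1, Sox30, Crem, Tbpl1, Zfp541, Kctd19 and Pou5f2. They were chosen by gene symbol from a table of 54532 genes, with earlier results of these data known. Each symbol matched 1 row, and the choice rule uses no measured value. Whole testes were sequenced 1 mouse to a library, from 4 mice of the control group, Sync-Spdya fl/fl, and 4 of the Sync-Spdya cKO group. All 8 mice carried floxed Spdya alleles on a C57BL/6J background, had spermatogenesis synchronized by a block of retinoic acid synthesis in neonates followed by retinoic acid (RA), and received tamoxifen at RA7.5 and RA8.5 according to the sample labels. The study's methods place both injections slightly earlier. The cKO mice also carried Ddx4-Cre ERT2, a tamoxifen-dependent Cre driven by a germ cell promoter that deletes exon 2 of Spdya, so that deletion was confined by design to germ cells while RNA came from the whole organ. Testes were collected at RA11.5, that is 11.5 days after retinoic acid was restored, when most synchronized germ cells are in mid to late pachynema. The comparison asks whether the regulators of the pachytene and spermatid programs had different RNA levels once Spdya was deleted.

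Pachynema is the long stage of meiotic prophase in which homologous chromosomes are fully synapsed and in which the germ cell starts to transcribe genes needed much later, in the haploid spermatid. A small set of testis-enriched regulators carries out this program. MYBL1 (A-MYB) and TCFL5 activate meiotic genes and the precursors of pachytene piRNAs, RFX2 acts on genes of the cilium and the sperm tail, SOX30, CREM and TBPL1 are needed for the haploid program, and ZFP541 with KCTD19 belongs to a complex with histone deacetylases.

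Fragments counted on genes ranged from 13978342 to 19583091 per library. Control replicate 1 stood apart from the other libraries: mitochondrial genes took 0.464% of its fragments, against 2.20% to 3.74% elsewhere. The squared difference of its counts from those of the other controls averaged 63.4 to 87.9 times the sampling variance per gene. Other pairs within a group had 4.05 to 21.8 times. Spdya itself had 20.8, 21.0, 23.8 and 19.7 FPKM in the controls and 30.5, 22.2, 26.1 and 17.7 FPKM in the cKO libraries. These values overlapped (log2 fold change 0.15, standard error 0.16, limma adjusted p = 0.787), and they gave no check of the labels. Markers of spermatocytes and of Sertoli cells were present in every library. The summed level of 10 spermatocyte markers ranged from 1115 to 1656 FPKM in the controls and from 928 to 1443 FPKM in the cKO libraries. RNA of the linker histone gene Hist1h1t averaged 0.279 FPKM in the controls and 0.667 FPKM in the cKO libraries. Its protein H1t marks mid to late pachynema. The paper's staining, slightly earlier, found H1t protein in most pachytene cells of both groups.

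FPKM counts fragments per kilobase of gene, relative to a scaled library size. The differences below are on the scale of log2(FPKM + 0.1), as cKO minus control, and were tested with limma over the 12141 protein-coding genes whose mean exceeded 1 FPKM in each group. A call of differential expression (DE) required an adjusted p (Benjamini-Hochberg) below 0.05 together with a log2 fold change beyond 1 in either direction. Under this rule 2 of the 12141 genes were called (0.0165%), Ccdc42 and 5330417C22Rik, named here because they were the only calls. The study, which tested counts with DESeq2 at the same thresholds, reported more DE genes. The counts given here hold for the limma fit only. Of the 10 regulators, 9 were tested and 0 were called. No regulator had an unadjusted p below 0.05, a mark reached by 1322 of the tested genes (10.9%), 5.89% with a higher and 5.0% with a lower cKO level. The count of regulators at that mark was also 0 with voom on recovered fragments, but with array weights, which gave least weight to control replicate 1, it was 4 (Mybl1, Tcfl5, Rfx2 and Kctd19), with 2543 genes in all. In all 10 the control and cKO libraries overlapped, as in most genes, since 6.24% of the tested genes had groups that did not overlap.

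Stretches of 250 bases directly before the RefSeq start (GRCm38.p6) are shown for Tcfl5, which had the largest difference among the tested regulators, for the paralogues Rfx2 and Rfx1, whose fold changes had opposite signs, and for Sox30, the one printed stretch that holds a SOX motif. They are read 5′ to 3′ on the strand of the gene, and the capitals mark matches, on either strand, to the MYB core CNGTT, the RFX core GTTGCC, the cAMP-response core TGACG and the SOX core ACAAT.
Tcfl5 (chr2:180642692-180642941, minus strand): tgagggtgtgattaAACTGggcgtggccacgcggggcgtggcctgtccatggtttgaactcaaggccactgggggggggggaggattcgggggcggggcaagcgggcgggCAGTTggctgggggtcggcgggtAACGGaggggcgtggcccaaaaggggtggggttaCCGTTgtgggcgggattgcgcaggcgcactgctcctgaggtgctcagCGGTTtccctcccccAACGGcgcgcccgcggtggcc
Rfx2 (chr17:56831009-56831258, minus strand): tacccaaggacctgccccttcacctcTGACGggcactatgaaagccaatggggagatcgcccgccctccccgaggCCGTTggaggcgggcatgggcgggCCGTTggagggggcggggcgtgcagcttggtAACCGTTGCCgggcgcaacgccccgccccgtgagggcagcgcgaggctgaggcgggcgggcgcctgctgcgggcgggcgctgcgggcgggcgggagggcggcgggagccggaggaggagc
Rfx1 (chr8:84066586-84066835, plus strand): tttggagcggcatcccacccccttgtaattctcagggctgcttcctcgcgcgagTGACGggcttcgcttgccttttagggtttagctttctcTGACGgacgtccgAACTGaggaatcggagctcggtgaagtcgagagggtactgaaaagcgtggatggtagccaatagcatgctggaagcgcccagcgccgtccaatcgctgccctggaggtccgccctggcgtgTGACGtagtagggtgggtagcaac
Sox30 (chr11:45980060-45980309, plus strand): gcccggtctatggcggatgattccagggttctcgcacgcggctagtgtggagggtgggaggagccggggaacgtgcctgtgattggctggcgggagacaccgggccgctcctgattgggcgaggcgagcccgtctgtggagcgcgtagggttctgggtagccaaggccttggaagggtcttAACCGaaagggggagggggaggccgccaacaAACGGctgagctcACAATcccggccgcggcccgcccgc
The Tcfl5 stretch holds 6 MYB matches, 3 on each strand. The Rfx2 stretch holds 4 MYB matches, 1 RFX match and 1 cAMP-response match, and its run AACCGTTGCC joins overlapping MYB and RFX matches. The Rfx1 stretch holds 1 MYB match and 3 cAMP-response matches but no RFX match, and the Sox30 stretch holds 2 MYB matches and 1 SOX match. Tbpl1, Zfp541 and Pou5f2 each had 2 MYB matches and none to the other motifs. Such short motifs are common: of 32851 RefSeq promoter stretches of the same length, 74.2% hold the MYB core, 27.7% the SOX core, 17.8% the cAMP-response core and 10.4% the RFX core. A match says only that these letters are present. The promoter table held entries for 7 of the 10 regulators.

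Mybl1 and Tcfl5 are the activators most closely tied to the onset of the pachytene program. Mybl1 (ENSMUSG00000025912, chr1:9667415-9700209, minus strand of GRCm38) had 17.7, 14.7, 18.8 and 16.7 FPKM in control replicates 1 to 4 and 17.5, 13.8, 13.3 and 11.3 FPKM in cKO replicates 1 to 4. Replicates 2, 3 and 4 of the cKO group lay below every control, while cKO replicate 1 lay among the controls. The group means were 17.0 ± 1.75 and 14.0 ± 2.59 FPKM (SD, n = 4 each). On the log2 scale the fold change was -0.29 (standard error 0.14, 95% interval -0.60 to 0.03, limma adjusted p = 0.514). In bulk tissue, fewer cells of a type and less RNA per cell cannot be told apart, here or for any gene below.

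Tcfl5 (ENSMUSG00000038932, chr2:180621956-180642708, minus strand), which encodes a basic helix-loop-helix factor, had 149.9, 78.0, 72.7 and 47.0 FPKM in the controls and 73.6, 56.5, 56.6 and 48.1 FPKM in the cKO libraries. Control replicate 1 lay far above all other libraries, and the other controls enclosed the whole cKO group. The means were 86.9 ± 44.1 and 58.7 ± 10.7 FPKM (SD, n = 4 each), so that the cKO mean was 67.6% of the control mean. Its log2 fold change was -0.45 (standard error 0.30, 95% interval -1.12 to 0.21, limma adjusted p = 0.636). Leaving out control replicate 1 gave -0.15, so that library made up most of the difference. Leaving out control replicate 4, the lowest control, gave -0.71. The 95% interval of Tcfl5 was the only one among the tested regulators that reached past a 2-fold difference. Exons of Tcfl5 share 234 bases with exons of Col9a3 on the opposite strand, and whether the counting used strand is not given in the sources used here.

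RFX2 and RFX1 bind the same X-box motif. RFX2 is enriched in the testis and is needed for spermatid flagella, and RFX1 is expressed in many tissues. Rfx2 (ENSMUSG00000024206, chr17:56775897-56831013, minus strand) had 22.2, 26.2, 30.2 and 18.1 FPKM in the controls and 26.1, 19.7, 21.2 and 16.7 FPKM in the cKO libraries. The control values enclosed all cKO values except that of cKO replicate 4. The log2 fold change was -0.20 (standard error 0.18, 95% interval -0.60 to 0.20, limma adjusted p = 0.748), moving to -0.08 if control replicate 3 was left out and to -0.33 if control replicate 4 was.

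Rfx1 (ENSMUSG00000031706, chr8:84066834-84096992, plus strand) had 4.34, 6.02, 6.81 and 4.65 FPKM in the controls and 5.12, 5.82, 6.63 and 5.77 FPKM in the cKO libraries. All 4 cKO values lay within the range of the controls. Rfx1 was the only tested regulator with a positive log2 fold change, 0.11 (standard error 0.16, 95% interval -0.24 to 0.46, limma adjusted p = 0.844), and this was 0.01 without control replicate 1. Its library order also differed from that of the other regulators, since cKO replicate 1 was the lowest of the cKO group for Rfx1 and the highest for the other 8 tested. Rfx1 shares 42 exon bases with the antisense gene C330011M18Rik.

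Sox30, Crem and Tbpl1 act at the passage from meiosis to the haploid spermatid. Sox30 (ENSMUSG00000040489, chr11:45980310-46017994, plus strand), an HMG-box factor, had 20.6, 18.3, 19.7 and 12.9 FPKM in the controls and 19.98, 14.6, 17.0 and 13.2 FPKM in the cKO libraries. Every cKO value lay inside the control range. On the log2 scale the fold change was -0.13 (standard error 0.17, 95% interval -0.52 to 0.26, limma adjusted p = 0.831). Leaving out 1 library moved it between -0.28 (control replicate 4) and -0.04 (cKO replicate 4).

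Crem (ENSMUSG00000063889, chr18:3266048-3337748, minus strand) encodes both activator and repressor forms of a cAMP-response factor, which a value per gene does not separate. It had 6.50, 9.69, 9.91 and 8.42 FPKM in the controls and 9.97, 8.19, 7.92 and 7.33 FPKM in the cKO libraries. Both the lowest control and the highest cKO library were replicate 1. Its log2 fold change was -0.04 (standard error 0.15, 95% interval -0.38 to 0.30, limma adjusted p = 0.954), and its sign turned with the scaling of the libraries and with single libraries left out (0.085 after centring on spermatocyte markers, 0.035 without control replicate 3). Crem shares 472 exon bases with Gm6225 on the opposite strand.

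Tbpl1 (ENSMUSG00000071359, chr10:22703879-22731938, minus strand), which encodes a relative of the TATA-binding protein, had 33.7, 33.7, 35.7 and 28.2 FPKM in the controls. The cKO libraries had 36.2, 29.1, 29.6 and 24.9 FPKM. The highest and the lowest of the 8 values both came from the cKO group. The log2 fold change was -0.14 (standard error 0.13, 95% interval -0.43 to 0.15, limma adjusted p = 0.762), with -0.23 when cKO replicate 1 was left out and -0.05 when cKO replicate 4 was. Tbpl1 shares 407 exon bases with Slc2a12 on the opposite strand.

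ZFP541 and KCTD19 are found in one complex with the histone deacetylases HDAC1 and HDAC2 in pachytene spermatocytes. Zfp541 (ENSMUSG00000078796, chr7:16061814-16096334, plus strand) had 16.0, 16.8, 21.2 and 13.2 FPKM in the controls and 18.6, 15.1, 18.4 and 12.8 FPKM in the cKO libraries. All cKO values except that of replicate 4 lay inside the control range. On the log2 scale the fold change was -0.05 (standard error 0.17, 95% interval -0.42 to 0.33, limma adjusted p = 0.946), and it was 0.077 after centring on spermatocyte markers and 0.073 without control replicate 3.

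Kctd19 (ENSMUSG00000051648, chr8:105382807-105413502, minus strand) had 67.4, 100.5, 102.7 and 77.2 FPKM in the controls and 100.4, 71.8, 71.8 and 59.7 FPKM in the cKO libraries. Control replicate 1 was the lowest of its group, while cKO replicate 1 was the highest of its own and lay among the highest controls. Its log2 fold change was -0.20 (standard error 0.19, 95% interval -0.62 to 0.22, limma adjusted p = 0.766), and it was -0.34 without cKO replicate 1 and -0.09 without cKO replicate 4. Kctd19 shares 56 exon bases with Plekhg4 on the opposite strand.

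Pou5f2 (ENSMUSG00000093668, chr13:78024902-78026295, plus strand), a POU-domain gene, was near the limit of detection and did not pass the FPKM filter. It had 0.493, 0.277, 0.597 and 0.482 FPKM in the controls and 0.444, 0.135, 0.0425 and 0.422 FPKM in the cKO libraries, which rested on 9, 7, 13 and 11 fragments and on 12, 3, 1 and 10 fragments. Replicates 2 and 3 of the cKO group lay below every control, and the other cKO libraries lay among them. In a fit without the filter the log2 fold change was -0.81 (standard error 0.43, 95% interval -1.77 to 0.14, limma adjusted p = 0.538), and it was -0.44 without cKO replicate 3, -1.08 without cKO replicate 1 and -1.06 without cKO replicate 4. With either of the last 2 left out its unadjusted p was below 0.05 (limma adjusted p = 0.375 and 0.756). Its single exon lies inside an intron of Fam172a on the same strand, and its reads cannot be told apart from those of unspliced Fam172a RNA. These few fragments limit the precision of its values.

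**Figure D1:**
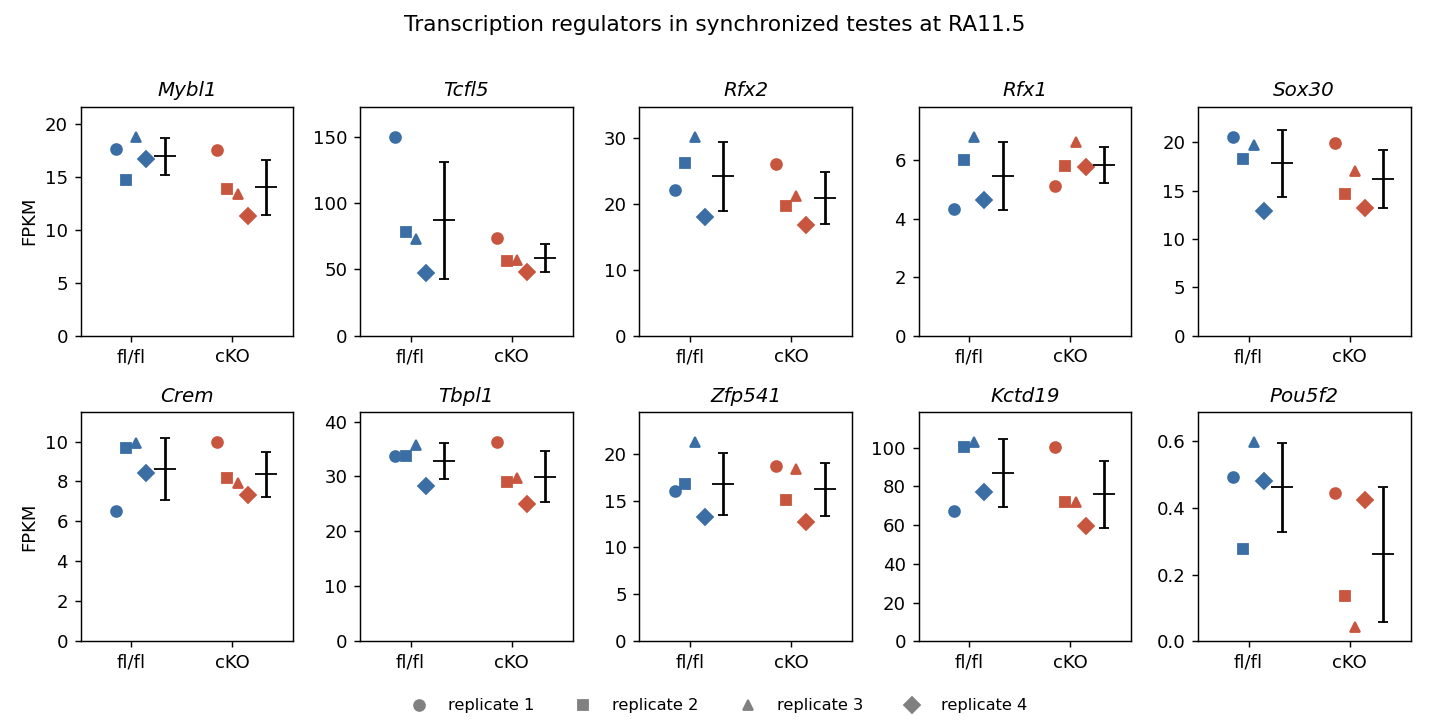
FPKM (vertical axes, each starting at 0) of the 10 regulators in the 4 fl/fl control libraries (blue) and the 4 cKO libraries (red), with marker shape giving the replicate number and black bars the mean and SD of each group. The groups overlap in every panel, and in the Tcfl5 panel control replicate 1 stands alone at 149.9 FPKM.

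Set side by side per length, the regulators covered a wide range of levels. Kctd19, with a mean of 81.4 FPKM over all 8 libraries, and Tcfl5, with 72.8 FPKM, were the most abundant, and their ranges overlapped, with Kctd19 above Tcfl5 in 7 of 8 libraries. Tbpl1 followed at 31.4 FPKM without overlap with Tcfl5. Rfx2 had 22.5 FPKM and lay below Tbpl1 in 8 of 8 libraries although their ranges overlapped. Sox30 at 17.0, Zfp541 at 16.5 and Mybl1 at 15.5 FPKM were close: Sox30 was above Zfp541 in 4 of 8 libraries, and Zfp541 above Mybl1 in 6 of 8. Crem at 8.49 and Rfx1 at 5.65 FPKM lay below the median of tested genes, 9.54 FPKM. Pou5f2 came last at 0.361 FPKM. Among the 1469 genes that the deposited table assigns to a transcription factor family, a column that includes 8 of the 10 regulators but not Tbpl1 or Kctd19, Tcfl5 ranked 14 and Rfx2 ranked 97 by mean level.

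Of the 9 tested regulators, 8 had a negative log2 fold change, where 48.0% of all tested genes did. Their median log2 fold change was -0.14, against 0.01 over all tested genes. The regulators' median was -0.25 when control replicate 4 was left out and -0.24 when cKO replicate 1 was. It was -0.084 in the absence of control replicate 3 and -0.055 in that of cKO replicate 4. The 95% intervals of 8 of the 9 lay within a 2-fold difference in either direction. These counts rest partly on the scaling of the libraries. Centring each library on spermatocyte markers moved the median of all genes to 0.13 and that of the regulators to -0.02, so that 6 of 9 were negative (not Rfx1, Crem or Zfp541). After it 2973 of all 12141 genes were negative. The regulators' median minus that of all genes was -0.15 both before and after, as this centring shifts every gene alike. The same centring moved the split of genes at an unadjusted p below 0.05 from 715 positive and 607 negative to 587 and 235. The centre was the mean log2 level of 10 markers with equal weight. Among them was Hist1h1t, on 3 to 13 fragments per library and with a log2 fold change of 0.96. The centre itself differed by -0.12 between the groups, so Hist1h1t pulled it up. Without it every centred fold change would be higher, so negative counts here and for the gene lists below could only stay or fall. A centre without Hist1h1t was not run. Negative regulators also numbered 6 of 9 without control replicate 3 or cKO replicate 4, and 7 of 9 without control replicate 2. They numbered 8 of 9 without any other library, control replicate 1 included.

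**Figure D2:**
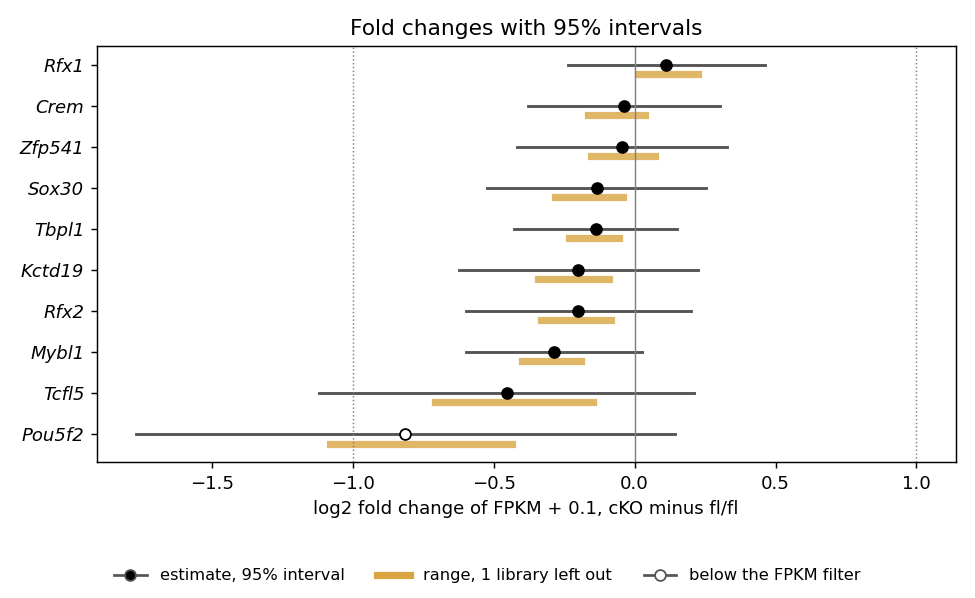
Log2 fold changes of FPKM + 0.1 (horizontal axis, cKO minus fl/fl) of the 10 regulators with limma 95% intervals (grey lines) and the range of estimates when 1 library at a time is left out (yellow bars). All 10 intervals include 0, and the dotted lines mark a 2-fold difference, which the interval of Tcfl5 and of Pou5f2 (open circle, below the FPKM filter) crosses.

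Several libraries stood high or low for most of the regulators at once. Among the controls, replicate 3 was the highest in 7 of the 9 tested regulators and replicate 4 the lowest in 5. Control replicate 1 had no common direction: it was the highest of its group in 2 and the lowest in 3, with deviations on the log2 scale of 1.14 for Tcfl5 and 0.29 for Sox30 but -0.37 for Crem, -0.36 for Rfx1 and -0.25 for Kctd19. Among the cKO libraries, replicate 1 was the highest in 8 of 9 and replicate 4 the lowest in 8 of 9. The median deviation of the regulators from their own means, on the log2 scale, was 0.28 in control replicate 3 and -0.26 in control replicate 4, and 0.22 in cKO replicate 1 and -0.35 in cKO replicate 4. These 4 deviations were larger than the median fold change between the groups.

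Spermatocyte markers had a similar order of libraries. Their summed level was 1595, 1447, 1656 and 1115 FPKM in control replicates 1 to 4 and 1443, 1082, 1103 and 928 FPKM in cKO replicates 1 to 4, so that replicate 4 was the lowest of both groups. The mean log2 level of the 10 markers differed by -0.12 between the groups (exact permutation test, two-sided, p = 0.486). Single markers went both ways, most of them down. Ldhc, which with Hspa2 makes up much of the sum, had means of 524 and 313 FPKM (log2 fold change -0.73, limma adjusted p = 0.287) and Ccna1 had 1.65 and 0.964 FPKM (-0.72, limma adjusted p = 0.212), while Hist1h1t, on few fragments, stood at 0.96 (limma adjusted p = 0.271), Hormad1 at 0.03 and Smc1b at 0.01. Ccna1 and Hist1h1t were read from the fit without the filter. The remaining spermatocyte markers were all negative: Hspa2 (-0.30), Sycp3 (-0.18), Syce1 (-0.18), Sycp1 (-0.09) and Pgk2 (-0.02). Of 5 lists of somatic markers, 1 had a p below 0.05: 5 macrophage markers summed to between 12.3 and 19.9 FPKM in the controls and between 21.0 and 25.04 FPKM in the cKO libraries, without overlap (mean log2 difference 0.51, two-sided p = 0.0286 in an exact permutation test, the minimum for 4 against 4, unadjusted for the 8 marker lists). The sum of 7 Sertoli cell markers was 980 to 1327 FPKM in the controls and 1310 to 1553 FPKM in the cKO libraries (exact permutation p = 0.343). For 5 Leydig cell markers it was 15.6 to 33.2 and 25.2 to 41.0 FPKM (exact permutation p = 0.0857), for 3 peritubular markers 42.7 to 73.1 and 71.6 to 101.0 FPKM (exact permutation p = 0.486), and for 3 endothelial markers 4.01 to 9.52 and 9.07 to 11.6 FPKM (exact permutation p = 0.0857). The sum of 8 spermatogonial markers was 195 to 263 and 243 to 253 FPKM, and single markers went both ways. Stra8 had means of 10.8 and 3.40 FPKM (log2 fold change -1.46, limma adjusted p = 0.280). Etv5 had 3.88 and 6.47 FPKM (0.78, limma adjusted p = 0.229). The sum of 6 round spermatid markers, of which 4 averaged below 1 FPKM, was 6.69 to 14.3 and 7.75 to 10.2 FPKM. No marker was at 0 in all libraries, and the part of cell composition in the values of the regulators was not tested.

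**Figure D3:**
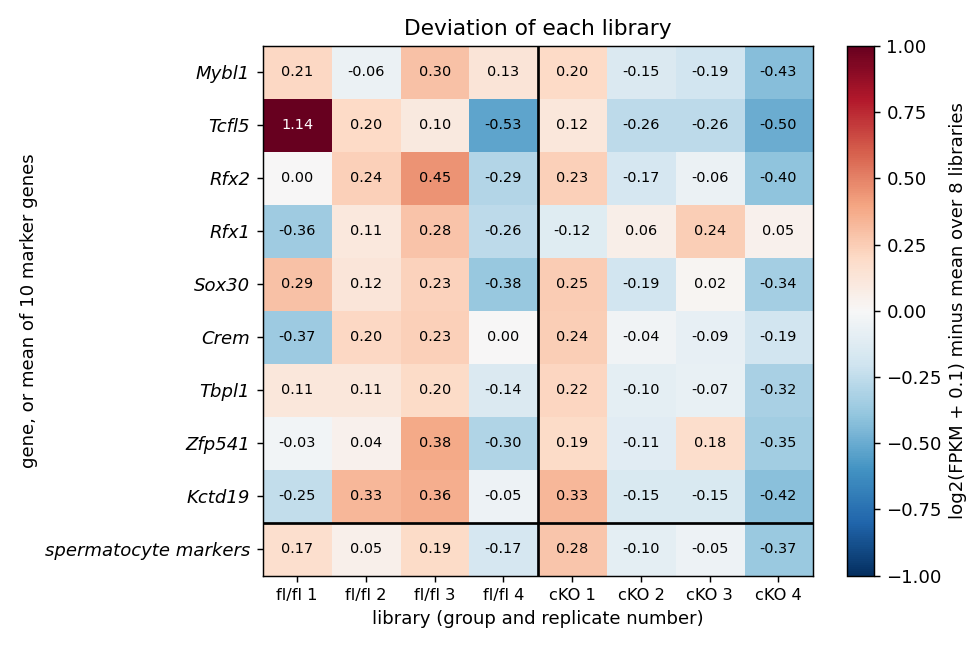
Deviation of log2(FPKM + 0.1) from the mean over 8 libraries (colour and printed value) for the 9 tested regulators and for the mean of 10 spermatocyte markers (rows) in each library (columns). In the cKO columns, replicate 1 is above 0 in 8 of 9 regulators and replicate 4 is at or below -0.19 in 8 of 9, as are the markers at 0.28 and -0.37.

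Ratios of partner genes within a library do not depend on how the libraries are scaled, apart from the added 0.1. For 5 such ratios all 70 assignments of the libraries to groups were enumerated in two-sided exact permutation tests, and 0 of the 5 had an adjusted p below 0.05. Zfp541 relative to Kctd19 had a log2 ratio of -2.36 ± 0.24 in the controls and -2.21 ± 0.19 in the cKO libraries (SD, n = 4 each, exact permutation p = 0.371, adjusted 0.643). The pair of complex members had a ratio between 0.168 and 0.257 in all 8 libraries.

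Rfx2 relative to Rfx1 had log2 ratios of 2.33, 2.10, 2.13 and 1.94 in the controls and 2.33, 1.74, 1.66 and 1.52 in the cKO libraries. Replicates 2, 3 and 4 of the cKO group lay below every control and replicate 1 at the top of them. The difference was -0.31 (exact permutation p = 0.171, adjusted 0.643), and it was -0.48 without cKO replicate 1, the only cKO library that overlapped the controls, and -0.22 without cKO replicate 4. With 1 library left out, the exact permutation p ranged from 0.0286 to 0.314, unadjusted for the 5 ratios. In every library Rfx2 was 2.87 to 5.02 times as abundant per length as Rfx1.

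Tbpl1 relative to Tbp, the gene of the TATA-binding protein, had a log2 ratio of 2.26 ± 0.31 in the controls and 2.10 ± 0.15 in the cKO libraries (SD, n = 4 each, exact permutation p = 0.514, adjusted 0.643). The difference of -0.15 was -0.01 without control replicate 1. Tbpl1 was 3.90 to 6.51 times as abundant per length as Tbp in every library.

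Mybl1 relative to Tcfl5 had log2 ratios of -3.08, -2.40, -1.95 and -1.49 in the controls and -2.06, -2.03, -2.08 and -2.08 in the cKO libraries. The 4 cKO values lay together in the middle of the widely spread controls, with SDs of 0.68 and 0.02. The means differed by 0.17 (exact permutation p = 0.714, adjusted 0.714), and by -0.11 without control replicate 1. The difference in spread was not tested.

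Crem relative to its testis coactivator gene Fhl5 could not be resolved, because Fhl5 averaged 0.122 and 0.0921 FPKM and rested on 0 to 6 fragments per library. Its log2 ratio differed by 0.27 between the groups (exact permutation p = 0.514, adjusted 0.643).

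**Figure D4:**
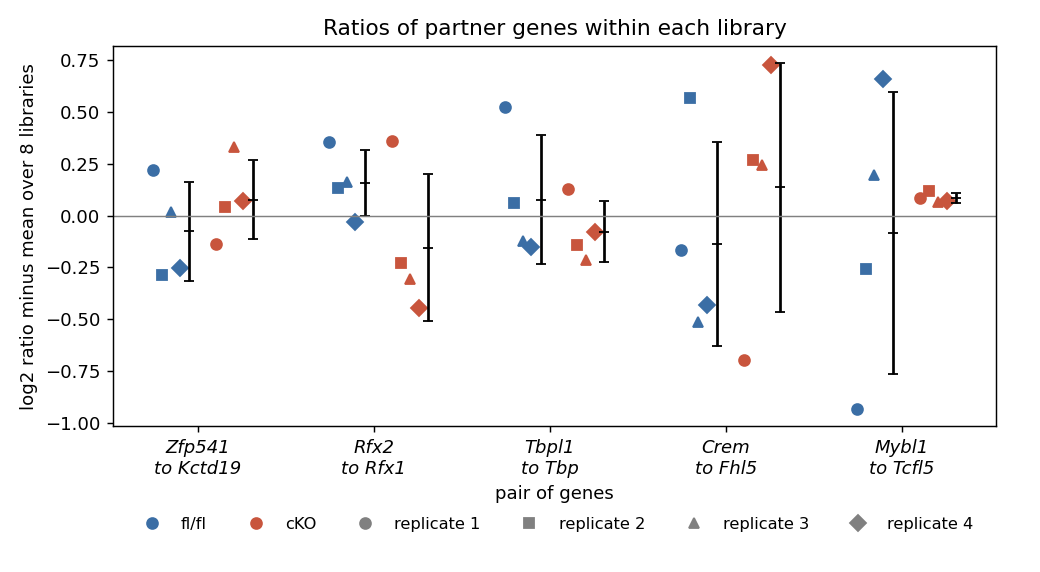
Log2 ratio of 5 pairs of genes in each library, as the deviation from the mean over 8 libraries (vertical axis), for fl/fl (blue) and cKO (red) libraries with marker shape giving the replicate number and black bars the mean and SD. The groups overlap in every pair, and the 4 cKO values of Mybl1 to Tcfl5 (SD 0.02) lie within the spread of the controls (SD 0.68).

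Genes that work with these regulators, or lie downstream of them in the germ cell, were read from the same fit. Of 61 list genes, 50 passed the filter, and none was called DE. For comparison, 48.0% of all tested genes had a negative log2 fold change, and the median was 0.01. At an unadjusted p below 0.05, 5.89% of all tested genes were positive and 5.0% negative. Groups did not overlap in 6.24% of them. After centring on spermatocyte markers, 2973 of the 12141 were negative, with a median of 0.13. Among 14 cofactors and partners, 13 were tested, with 1 positive and 1 negative difference at an unadjusted p below 0.05 and a median log2 fold change of -0.04, which was 0.078 after centring on spermatocyte markers. Elmsan1, whose product (MIDEAS) joins the histone deacetylase complex, had 2.76, 2.91, 2.82 and 3.05 FPKM in the controls and 3.26, 3.80, 3.48 and 4.30 FPKM in the cKO libraries. Its groups did not overlap, and its log2 fold change was 0.35 (limma adjusted p = 0.348). Gtf2a1l, the germ cell form of a TFIIA subunit, had means of 19.8 and 14.0 FPKM (log2 fold change -0.50, limma adjusted p = 0.392). Hdac2, the most abundant of the list, had 42.6 and 40.7 FPKM, and Hdac1 had 35.2 and 40.8 FPKM.

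Of 17 other germ cell transcription regulators, 15 were tested, and 12 of these had a negative and 3 a positive log2 fold change, with a median of -0.12. After centring on spermatocyte markers 6 of the 15 were negative, where 2973 of all 12141 genes were, and the median was 0.0035. Dmrtb1, a regulator of the switch from mitosis to meiosis, had 29.6, 46.3, 37.9 and 33.02 FPKM in the controls and 60.7, 48.1, 53.7 and 45.0 FPKM in the cKO libraries. Only control replicate 2 reached the cKO range, and the log2 fold change was 0.51 (limma adjusted p = 0.287). Ybx3, which encodes a cold-shock domain protein that binds DNA and RNA, had means of 214 and 147 FPKM (log2 fold change -0.51, limma adjusted p = 0.441). Its close relative Ybx2, the most abundant of the list, had 638 ± 129 and 549 ± 84.2 FPKM (SD, n = 4 each).

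Genes of the piRNA pathway, several of which are targets of MYBL1, were all tested. Of 10, 9 had a negative log2 fold change, 3 of them at an unadjusted p below 0.05, and the median was -0.25. Of all tested genes 48.0% had a negative difference, and 5.0% had one at that p. After centring on spermatocyte markers 7 of the 10 were negative, 1 of them (Tdrd6) at that p, with a median of -0.13. Of all 12141 genes 2973 were then negative, and 1.94% of all genes were negative at that p. Tdrd6, a tudor-domain gene of the chromatoid body, had 19.8, 15.2, 23.2 and 13.3 FPKM in the controls and 14.1, 12.3, 9.07 and 10.3 FPKM in the cKO libraries. Only cKO replicate 1 overlapped with the controls, and the log2 fold change was -0.63 (limma adjusted p = 0.287). Henmt1, which methylates the 3′ end of piRNAs, had 10.3, 11.1, 11.5 and 9.31 FPKM in the controls and 9.22, 8.90, 7.89 and 7.20 FPKM in the cKO libraries, without overlap (log2 fold change -0.35, limma adjusted p = 0.329). The third of these genes was Piwil1, the PIWI protein of pachytene piRNAs, with means of 202 and 153 FPKM (limma adjusted p = 0.442). Mael, the most abundant of the list, had 215 and 180 FPKM.

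Genes of the cilium and axoneme, the class that RFX2 regulates, gave similar counts. Of 10 tested, 9 had a negative log2 fold change, 3 of them at an unadjusted p below 0.05, with a median of -0.28. Of all tested genes 48.0% were negative, and 5.0% were negative at that p. After centring on spermatocyte markers 8 were negative, 2 of them (Tekt1 and Tekt2) at that p, with a median of -0.16. Of all 12141 genes 2973 were then negative, and 1.94% of all genes were negative at that p. Tekt2, which encodes a tektin of the flagellar microtubules, had 5.34, 5.34, 7.34 and 5.14 FPKM in the controls and 3.09, 3.96, 2.84 and 2.76 FPKM in the cKO libraries. Every cKO library lay below every control, and the log2 fold change was -0.85 (limma adjusted p = 0.127). Tekt1, another tektin gene, had means of 39.2 and 28.1 FPKM (log2 fold change -0.49, limma adjusted p = 0.399), and Ift172, of intraflagellar transport, had 43.4 and 33.2 FPKM (log2 fold change -0.38, limma adjusted p = 0.420). Rsph1, the most abundant of the list, had 382 ± 98.3 and 346 ± 52.6 FPKM (SD, n = 4 each).

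Genes that the haploid program switches on later had low levels at RA11.5. Of 10 spermatid genes 2 passed the filter, and Prm1, Prm2, Tnp1, Tnp2, Odf1 and Smcp averaged below 1 FPKM in both groups. Dbil5, an acyl-CoA-binding protein gene, had means of 10.2 and 7.16 FPKM (log2 fold change -0.49, limma adjusted p = 0.454), and Gapdhs, the sperm form of the glycolytic enzyme GAPDH, had 3.93 and 3.37 FPKM. The piRNA, cilium and spermatid genes were measured in the same libraries as the regulators. Their order of libraries was not compared as a set, and Tekt2 and Tdrd6 had another order of cKO libraries than most regulators. How far single libraries shape the list medians was not tested.

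**Figure D5:**
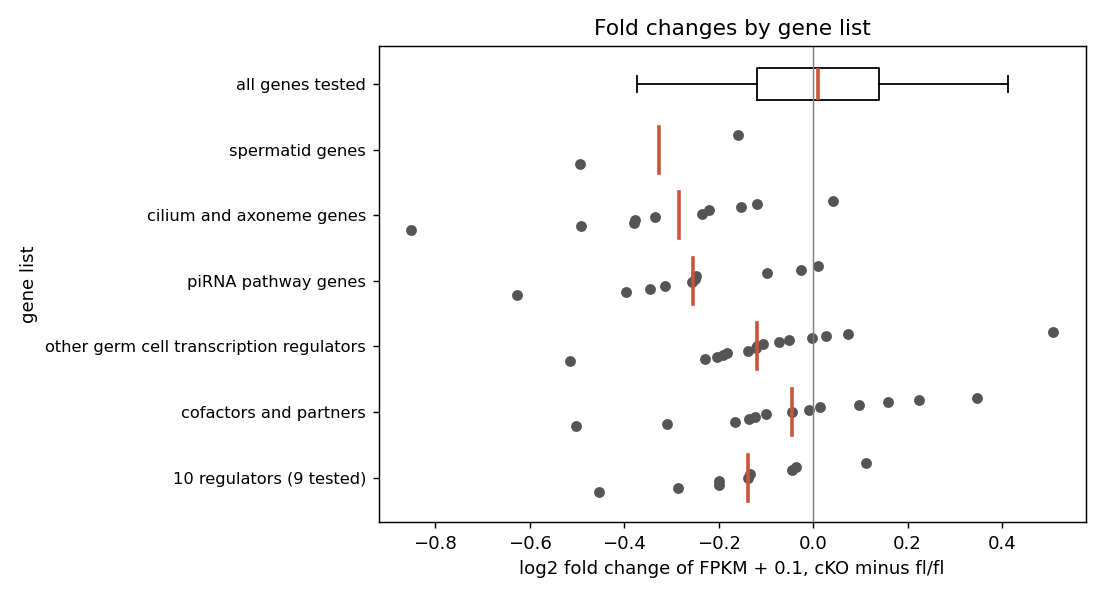
Log2 fold changes of FPKM + 0.1 (horizontal axis, cKO minus fl/fl) of the tested genes of each list (points, spread vertically for visibility) with the median (red line). For all 12141 genes tested the box spans the quartiles and the whiskers run from the 5 to the 95 percentile; list medians run from -0.04 for cofactors to -0.33 for spermatid genes, of which 2 were tested.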

How the data were processed

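RNA-seq of whole testes from 4 control and 4 cKO mice was analysed. The authors deposited FPKM values for 54532 genes with gene lengths, made by a sequencing company's software, and the same values again library by library (54532 of 54532 rows equal). Per the submitters' processing notes the build was GRCm38 (mm10). The aligner, the counter and the use of strand are not given in the sources used here. The study tested counts with DESeq2, which was not run here.

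FPKM multiplied by gene length gave whole fragments for 100% of values above 0 (tolerance 0.02), and the FPKM values already include a scaling of each library by the authors. Log2(FPKM + 0.1) was tested with limma 3.58.1 in R 4.3.3 (lmFit, eBayes with a mean trend, no covariates) after the filter on protein-coding genes given above, a scale that understates differences of low genes. The procedure was tested on simulated data, with 200 genes changed by 1.5 on the log2 scale and genes varying independently. The simulation held no differences as small as those of the regulators and no library that stood apart. It therefore does not show how well such differences would be detected. Regulators and ratios were chosen, and the gene and marker lists written, with earlier results of these data known. The list genes named were the 2 with the smallest p and the most abundant of each list. Hdac1, Piwil1, Ift172 and the spermatid genes below 1 FPKM were added after their values were seen. So were the values of single spermatocyte markers and of the spermatogonial markers Stra8 and Etv5. Mideas was matched through its older symbol, Elmsan1. Overlapping genes were read from GENCODE on the same build and promoters from RefSeq.

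No pair of libraries within a group had a mean squared difference below 4.05 times the sampling variance, and each library entered as 1 sample. Both groups use the same replicate numbers, and deviations of same-numbered libraries correlated at 0.288, 0.131, 0.0757 and 0.406. For 5 of the 8 libraries the best match in the other group was the library of the same number. No source ties a number to a litter. The mice were treated as unpaired, and a fit with the replicate number as a block is given below. Alternatives changed the pseudocount, the filter, the centring, the variance trend (eBayes without it, or voom on recovered fragments), or added array weights or the replicate number as a block, or left out 1 library. Leaving out libraries for Pou5f2 and Fhl5 in the fit without the filter was added after the data were seen.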

Additional observations from a re-analysis of the deposited data

How the results depend on the processing

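No regulator was called DE under any alternative that was run. The number of DE genes among all tested was 2 as reported, 0 with a mean FPKM above 5 or with centring on spermatocyte markers, 1 with centring on the autosomal median, 4 with all biotypes, 57 with array weights, and 0 to 3 with 1 library left out (3 without cKO replicate 2). The array weights were lowest for control replicate 1 (0.161) and highest for cKO replicate 3 (4.45). The number of regulators at an unadjusted p below 0.05 was 0 as reported, 4 with array weights (Mybl1, Tcfl5, Rfx2 and Kctd19), and 0 to 1 of the 9 that passed the filter with 1 library left out (Mybl1 without control replicate 2 or cKO replicate 1, Tcfl5 without control replicate 4). Pou5f2, in the fit without the filter, also had an unadjusted p below 0.05 without cKO replicate 1 or cKO replicate 4. List genes at that p numbered 11 as reported, 6 with centring on spermatocyte markers, 24 with array weights, and 4 (without cKO replicate 4) to 17 (without cKO replicate 1). Over all genes the count was 1322 as reported, 744 with a mean FPKM above 5, 822 with centring on spermatocyte markers, 2543 with array weights, and 687 (without cKO replicate 4) to 1897 (without control replicate 1). Tekt1 and Tekt2 reached limma adjusted p-values of 0.0313 and 0.0250 with array weights. The causes were not tested.

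With the replicate number as a block, 0 genes were called DE, 1 regulator (Tcfl5) had an unadjusted p below 0.05, 12 list genes and 1777 of all genes did, and no other call of the regulators, lists or ratios changed. Of the 8 libraries, 5 correlated best with the library of their own number in the other group.

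Signs turned in small differences. With centring on spermatocyte markers Crem was 0.085, Zfp541 0.077, Hdac2 0.078 and Rsph1 0.0038, and with array weights Hdac2 was 0.068 and Tbp -0.057. With 1 library left out, the ranges crossed 0 for Crem (-0.17 to 0.035), Zfp541 (-0.15 to 0.073), Hdac2 (-0.14 to 0.10), Rsph1 (-0.26 to 0.0069), Gapdhs (-0.39 to 0.032), Tbp (-0.12 to 0.12) and Mybl1 relative to Tcfl5 (-0.11 to 0.42). The tested regulators rested on 366 to 6220 fragments per library, Pou5f2 on 1 to 13 and Fhl5 on 0 to 6, so that depth limited the last 2 most.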

Other observations

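The families of the regulators were compared after their values were seen. Of 8 RFX genes, Rfx2 had the highest mean level over all 8 libraries, 22.5 FPKM, followed by Rfx5 at 10.6, Rfx4 at 7.99, Rfx8 at 7.17, Rfx7 at 6.13, Rfx1 at 5.65 and Rfx3 at 1.75 FPKM, while Rfx6 was listed at 0 in every library. No RFX gene was called, and their log2 fold changes ranged from -0.20 (Rfx2) to 0.11 (Rfx1). Of the MYB genes, Mybl1 had 15.5, Mybl2 9.60 and Myb 0.115 FPKM. Atf1, a relative of Crem, had 47.1 FPKM, more than Crem at 8.49 and Creb1 at 6.01 FPKM. Tbpl1 had 31.4 and Tbp 6.87 FPKM, and Tbpl2, the oocyte form, was listed at 0 in every library.

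Among 19 SOX genes Sox30 ranked 5 by the mean over both groups, after Sox3 at 28.3, Sox9 at 26.9, Sox4 at 17.8 and Sox12 at 17.2 FPKM. In the controls alone Sox30 was above Sox12 (17.9 and 17.2 FPKM), and in the cKO libraries below it (16.2 and 17.3 FPKM). Sox9 is a Sertoli cell gene, so levels in whole testis mix cell types. Sox3 and Sox4 had SDs of 12.7 and 8.11 FPKM in the controls and 1.34 and 1.13 FPKM in the cKO libraries (n = 4 each), and these spreads were not compared by a test. Among 15 POU genes Pou5f2 ranked 7, and Pou2f2 had 8.85 ± 1.76 FPKM in the controls and 5.80 ± 1.79 FPKM in the cKO libraries (SD, n = 4 each, log2 fold change -0.63, limma adjusted p = 0.368).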
